A study of Mus musculus with 4 samples.

Results

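The genes described here encode the Greatwall kinase, its substrates and the serine/threonine phosphatases that act against the CDK1 kinase in meiosis. The list held 10 genes, named by symbol with earlier results of these data known, out of the 21957 genes of the deposited table. All 10 were found by their Ensembl identifiers. They are *Mastl*, *Ensa*, *Arpp19*, *Ppp2ca*, *Ppp2cb*, *Ppp2r1a*, *Ppp2r2a*, *Ppp2r2d*, *Ppp2r5c* and *Ppp1ca*.

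The study compared mouse oocytes before and after meiotic maturation, and after culture in Tubastatin A (TubA), a histone deacetylase inhibitor sold as selective for HDAC6. All oocytes came from B6D2F1 (C57BL/6 x DBA) hybrid females 6 to 8 weeks old and were kept in M16 medium. The females had been injected with pregnant mare serum gonadotropin before collection, and cumulus cells were removed with hyaluronidase. Untreated oocytes with an intact germinal vesicle (GV) were taken at 0 h of culture, and the other 3 groups spent 12 h in culture, either untreated (MII) or in TubA at 10 uM (TubA-10) or 20 uM (TubA-20) as their titles state. RNA-seq was done on 1 library per group, so the 4 libraries have no replicates and no difference between them could be tested. The methods of the study describe libraries of pooled oocytes, although elsewhere it writes of single oocytes. MII oocytes were collected by their polar body, whereas no such choice is stated for TubA oocytes. The study reports that the higher TubA dose hindered the passage of oocytes from meiosis I to meiosis II. Meiotic stage, selection and treatment therefore cannot be told apart between the MII and TubA groups. TubA was dissolved in DMSO, and whether the untreated oocytes received DMSO is not given in the sources used here. The treatment field of the labels gives 20 uM for TubA-10 and 11 uM for TubA-20, at odds with the titles. The title of the MII library calls it an embryo, although the study describes oocytes. The libraries are named by their titles throughout.

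Greatwall, the product of *Mastl*, phosphorylates the small proteins ENSA and ARPP19. In that form they bind and inhibit protein phosphatase 2A (PP2A) when it carries a B55 regulatory subunit, which keeps the substrates of CDK1 phosphorylated while the cell is in M phase. PP2A is built from a catalytic, a scaffold and a regulatory B subunit, and the B subunit sets which proteins it acts on. With a B56 subunit and a shugoshin it guards cohesin at the centromeres of meiotic chromosomes. In the mouse oocyte, Greatwall is known for its part in the passage from the first to the second meiotic division, and protein phosphatase 1 (PP1) is another phosphatase that opposes CDK1.

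The sequence that makes ENSA and ARPP19 Greatwall substrates is shown first, because the mRNAs for these paralogs are compared throughout. The coding bases around the phosphorylated serine are given 5′ to 3′ from the GENCODE M21 transcripts on GRCm38, with the serine codon in capitals. They lie in coding exons on the plus strand at chr3:95628544-95628573 for *Ensa*, where the serine is codon 67, and at chr9:75056638-75056667 for *Arpp19*, where it is codon 62.
*Ensa*: aagtactttgacTCAggagactacaacatg
*Arpp19*: aagtattttgatTCTggggactacaacatg
Of the 30 bases, 26 were identical and 4 differed. Over the aligned coding sequences the pair shared 74.0% of bases, and the translated proteins, of 117 and 112 residues, shared 77.7% of positions.

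Levels are FPKM, fragments per kilobase of transcript scaled to the mapped fragments of each library, which can be compared between genes because they are divided by length. A change is the log2 ratio of FPKM + 1, which makes differences at low levels look smaller, and "2-fold" means past 2-fold on this scale. To give a scale for a change, the robust SD of the log2 change between TubA-10 and MII was 0.39 over 7292 genes with at least 5 FPKM in either library. It is a spread across genes and not an error of replicates. FPKM are shares of each library, so a smaller pool of oocytes and less RNA per oocyte cannot be told apart, and the values describe mRNA, not protein or phosphatase activity.

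The libraries held oocyte transcripts as labelled. All 8 oocyte markers were present, and their sum was 10665 FPKM in GV, 10904 in TubA-10, 12200 in MII and 13494 in TubA-20. They did not move together, since in TubA-20 against GV 2 of them (*Gdf9* and *Oosp1*) were more than 2-fold higher and 4 (*Zp1*, *Zp2*, *Zp3* and *Figla*) lower, with a median log2 change of -0.89, and 3 were lower by more than 2-fold between TubA-20 and MII. The 12 cumulus and granulosa markers summed to 17.9 FPKM in GV, 13.7 in MII, 17.6 in TubA-20 and 10.5 in TubA-10. Among them *Foxl2* was 0 in every library, and *Inha* had 7.5 FPKM in GV against at most 0.314 elsewhere. The reverse held for *Cyp19a1*, the largest of them in every cultured library, which rose from 6.14 FPKM before culture to 10.3 FPKM with the higher dose. *Kitl*, *Ptx3* and *Tnfaip6* were also higher in MII and TubA-20 than in GV. By sign alone, 6 of the 12 were higher and 5 lower in TubA-20 than in GV. Of 6 blood markers, the 4 globins were at 0 throughout and the list summed to at most 2.26 FPKM. From the smallest steps of the FPKM values, sequencing depth relative to GV was estimated at 1.64 in MII, 0.901 in TubA-20 and 1.68 in TubA-10. This estimate concerns the fragments behind the FPKM values, and in the total reads stated by the study TubA-20 lay above GV, not below it. The part of markers and depth in the differences below was not tested.

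Against GV, the abundant substrate mRNA *Arpp19*, the minor substrate *Ensa* and both catalytic subunits of PP2A were lower in all 3 cultured libraries, except that *Ensa* in TubA-10 turned to 0.04 on the log2 scale with equal *Gapdh*, while *Mastl*, the scaffold *Ppp2r1a*, and the regulatory subunits *Ppp2r2a* and *Ppp2r5c* were higher. The 3 comparisons share the GV library. The range over the 4 libraries was 7.34-fold for *Arpp19* and 1.22-fold for *Ppp2r2d*.

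**Figure D1:**
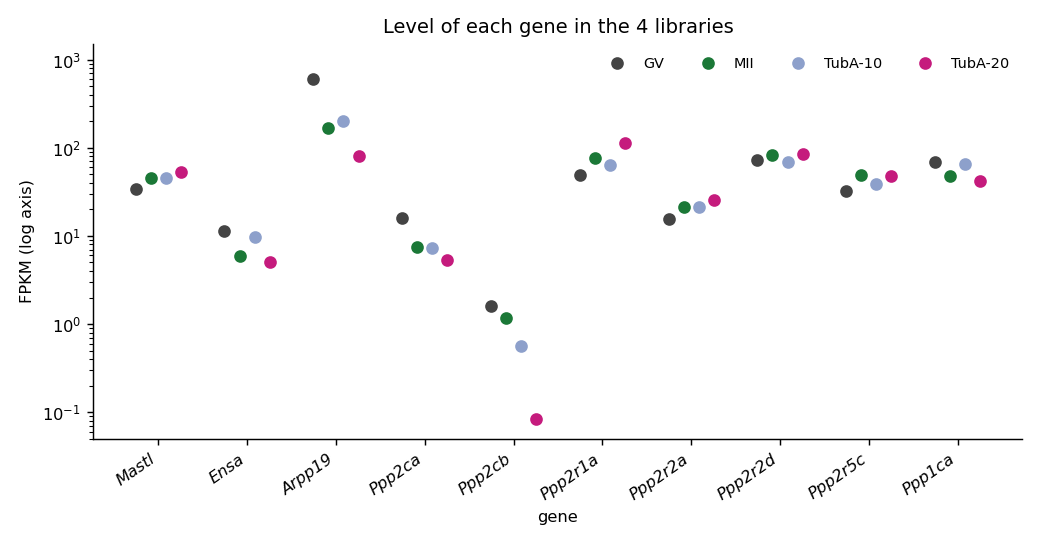
FPKM of each of the 10 genes in the GV, MII, TubA-10 and TubA-20 libraries, 1 point per library, on a log axis. *Arpp19* runs from 598 FPKM in GV to 81.5 in TubA-20, *Ppp2r1a* runs the other way from 49.6 to 114, and *Ppp2cb* is the lowest gene in every library.

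*Mastl* (ENSMUSG00000026779, chr2:23115606-23156024, minus strand, 12 exons) encodes Greatwall itself. Its level was 34.2 FPKM in GV, 45.4 in MII, 53.5 in TubA-20 and 45.9 in TubA-10. GV was thus the lowest library and TubA-20 the highest, a range of 1.57-fold, and TubA-10 stood at 1.01 times the MII level. Relative to GV, the log2 change was 0.40 for MII, 0.63 in TubA-20 and 0.41 in TubA-10. Against MII it was 0.01 in TubA-10, whose sign turned under other scalings (between -0.04 and 0.05), and 0.23 in TubA-20. No *Mastl* change reached 2-fold in any comparison. In GV the gene stood above 87.2% of genes in the table and in TubA-20 above 90.8%.

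*Arpp19* (ENSMUSG00000007656, chr9:75037614-75060313, plus strand, 3 exons) was by far the more abundant substrate mRNA. Its level was 598 FPKM in GV, 203 in TubA-10, 167 in MII and 81.5 in TubA-20. GV lay above 99.2% of genes in the table and was 3.59-fold the MII level, 2.95-fold the TubA-10 level and 7.34-fold the TubA-20 level. On the log2 scale *Arpp19* stood at -1.84 in MII, -2.86 in TubA-20 and -1.56 in TubA-10 relative to GV. The library with the higher TubA dose had 2.05-fold less *Arpp19* than MII, a log2 change of -1.02. The lower dose lay on the other side of MII, at 0.28. These signs held under 4 other scalings of the libraries.

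Among genes with at least 5 FPKM in either library, 6.08% had a lower change than *Arpp19* in MII against GV, 4.27% in TubA-20 against GV and 5.72% in TubA-20 against MII. In GV, MII and TubA-10 it was the highest of the 10 genes. In TubA-20 its rank was 3, under *Ppp2r1a* and *Ppp2r2d*.

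*Ensa* (ENSMUSG00000038619, chr3:95624993-95632102, plus strand, 3 exons) was measured at 11.4 FPKM in GV, 9.82 in TubA-10, 5.87 in MII and 5.11 in TubA-20. The order of libraries was that of *Arpp19*, with a smaller range of 2.24-fold. TubA-10 lay close to GV, and MII and TubA-20 lay close to each other. Relative to GV, the log2 change was -0.86 for MII and -1.02 in TubA-20, or -0.95 when the libraries were scaled to equal *Gapdh*. In TubA-10 it was -0.20 and turned to 0.04 under that scaling. Against MII the TubA-10 change of *Ensa* was 0.66, and 93.4% of genes with at least 5 FPKM in either library had a lower one. A processed pseudogene, *Gm5224*, is 93.8% identical to *Ensa* over 354 bases and has no entry in the table, so reads from it and from *Ensa* may not have been told apart.

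Ratios between genes within a library do not depend on how the libraries were scaled. *Arpp19* mRNA was 17.5 times *Mastl* mRNA in GV, 4.42 times in TubA-10, 3.67 times in MII and 1.52 times in TubA-20. The ratio of *Ensa* to *Mastl* was 0.334 in GV, 0.214 in TubA-10, 0.129 in MII and 0.0955 in TubA-20. *Arpp19* message thus exceeded kinase message in every library and *Ensa* message lay below it, and both ratios were lowest in TubA-20. The ratio of *Arpp19* to *Ensa* was 52.3 in GV, 28.4 in MII, 15.9 in TubA-20 and 20.6 in TubA-10, so *Arpp19* made up at least 94.1% of the summed substrate FPKM in each library.

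**Figure D2:**
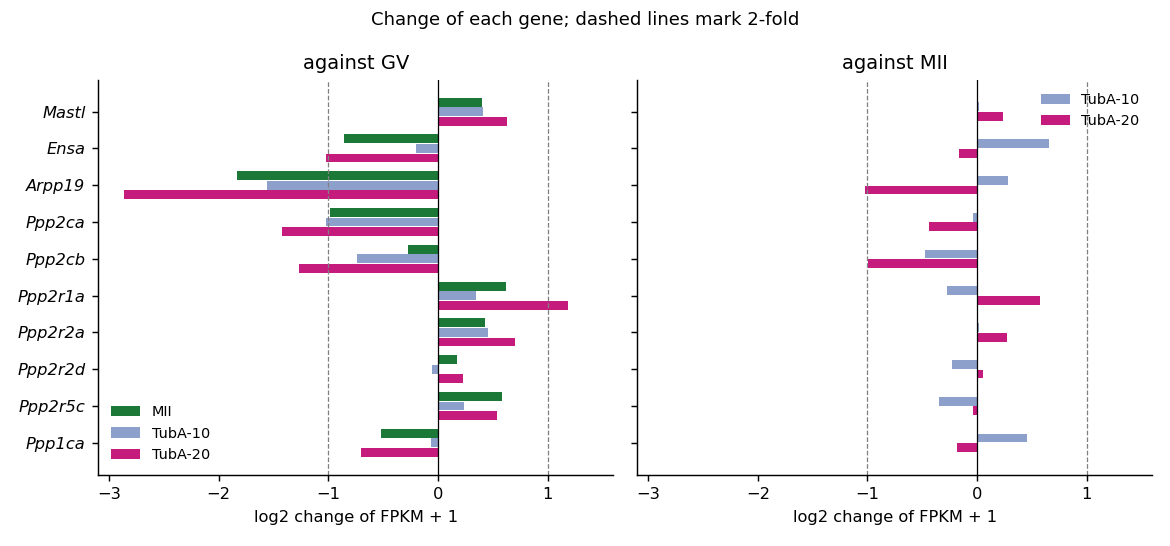
Log2 ratio of FPKM + 1 for each of the 10 genes in MII, TubA-10 and TubA-20 against GV and in the TubA libraries against MII, with lines at 2-fold. Each bar rests on a pair of single libraries, and *Arpp19* lies below -1 in all comparisons with GV and at -1.02 in TubA-20 against MII.

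*Ppp2ca* (ENSMUSG00000020349, chr11:52098681-52127778, plus strand, 7 exons) encodes the main catalytic subunit of PP2A. Its level was 16.0 FPKM in GV, 7.58 in MII, 5.33 in TubA-20 and 7.38 in TubA-10. GV held the most, the MII and TubA-10 levels nearly coincided, and the range over all 4 was 3.0-fold. Relative to GV, the log2 change was -0.98 for MII, -1.42 in TubA-20 and -1.02 in TubA-10. The MII change passed 2-fold when the median change over genes was set to 0 (-1.11), and the TubA-10 change no longer passed it with equal *Gapdh* (-0.77), so both sit at the threshold. Against MII the change was -0.44 in TubA-20 and -0.03 in TubA-10. Exons of *Ppp2ca* overlap *Mir3061* on the same strand.

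*Ppp2cb* (ENSMUSG00000009630, chr8:33599625-33619441, plus strand, 7 exons) encodes the other catalytic subunit, whose protein was 97.4% identical to that of *Ppp2ca* over 309 residues. The coding bases of the pair were 81.7% identical. *Ppp2cb* had 1.6 FPKM in the GV library, 1.16 in MII, 0.0839 in TubA-20 and 0.559 in TubA-10. From the estimated depth these values stand for about 25 fragments in GV, 30 in MII, 1 in TubA-20 and 15 in TubA-10, against at least 189 for every other gene of the list in every library. The 95% exact Poisson interval ran from 0.00179 to 0.394 FPKM in TubA-20 and from 0.789 to 1.67 FPKM in MII. These intervals cover counting error only. The TubA-20 interval thus lay below that of MII, and *Ppp2cb* had the fewest fragments of the list there. Its log2 change with 1 FPKM added was -0.27 in MII, -1.26 in TubA-20 and -0.74 in TubA-10 against GV, and -0.995 in TubA-20 against MII, just short of 2-fold. With 0.1 FPKM added the last value was -2.78, so its size depended on the pseudocount.

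*Ppp2ca* carried 90.9% of the catalytic FPKM in GV, 86.7% in MII, 98.4% in TubA-20 and 93.0% in TubA-10. The summed catalytic level was 17.6 FPKM in GV, 8.74 in MII, 5.41 in TubA-20 and 7.94 in TubA-10. GV therefore exceeded each cultured library for the pair as a whole as well as for either gene.

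*Ppp2r1a* (ENSMUSG00000007564, chr17:20945311-20965916, plus strand, 15 exons) encodes the alpha scaffold, on which the other PP2A subunits assemble. Its level was 49.6 FPKM in GV, 63.1 in TubA-10, 76.5 in MII and 114 in TubA-20. The direction was opposite to that of the catalytic genes, and TubA-20 stood 2.30-fold above GV. Relative to GV, the log2 change was 0.62 for MII, 0.34 in TubA-10 and 1.19 for TubA-20, the last at 0.96 when the median change over genes was set to 0. Against MII it was -0.27 for TubA-10. For TubA-20 it was 0.57, and 92.6% of genes with at least 5 FPKM in either library had a lower change. In TubA-20 *Ppp2r1a* had the highest level of the 10 genes. The processed pseudogenes *Gm11838* and *Gm49213* are 94.6% and 93.9% identical to *Ppp2r1a* over 224 and 214 bases and have no entries in the table.

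*Ppp2r1a* made up 93.3% to 95.3% of the scaffold FPKM in the 4 libraries, the rest being *Ppp2r1b*. The ratio of *Ppp2r1a* to *Ppp2ca* was 3.10 in GV, 8.56 in TubA-10, 10.1 in MII and 21.4 in TubA-20. Scaffold message thus exceeded catalytic message in every library, by most in TubA-20.

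*Ppp2r2a* (ENSMUSG00000022052, chr14:67014056-67072444, minus strand, 10 exons) and *Ppp2r2d* (ENSMUSG00000041769, chr7:138846079-138883057, plus strand, 9 exons) encode B55 alpha and B55 delta, regulatory subunits of the form of PP2A that phosphorylated ENSA and ARPP19 inhibit. Their coding sequences were 77.6% and their translated proteins 89.9% identical. *Ppp2r2a* had 15.5 FPKM in the GV library, 21.2 in MII, 25.8 in TubA-20 and 21.5 in TubA-10. Its order of libraries was that of *Mastl*, with log2 changes from GV of 0.43 in MII, 0.70 in TubA-20 and 0.45 in TubA-10. *Ppp2r2d* had 72.6 FPKM in the GV library, 82.1 in MII, 85.2 in TubA-20 and 69.7 in TubA-10. Its 1.22-fold range was the smallest of the list, and the signs of its changes in TubA-10 against GV and in TubA-20 against MII turned under other scalings. Processed pseudogenes without an entry in the table match both genes, *Gm19221* with 94.8% identity to *Ppp2r2a* over 1365 bases and *Gm7571* with 90% identity to *Ppp2r2d* over 371 bases.

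Within the B55 family *Ppp2r2d* held 59.1% of the FPKM in GV, 58.5% in TubA-10, 70.0% in MII and 73.4% in TubA-20, and was the leading member in each. The *Ppp2r2a* share was 12.6% in GV, 18.1% in MII, 22.2% in TubA-20 and 18.1% in TubA-10. *Ppp2r2b*, the beta member, was measured at 34.7 FPKM in GV, 27.7 in TubA-10, 13.9 in MII and 4.96 in TubA-20, and its share was 28.3% in GV and 4.28% in TubA-20. As deposited, the family sum stayed between 116 and 123 FPKM, so on these values the makeup of B55 message differed between libraries more than its amount. The sum depends on how the libraries were scaled, whereas the shares do not. The summed substrates stood at 4.96 times the summed B55 level in GV, 1.78 times in TubA-10, 1.47 times in MII and 0.746 times in TubA-20. TubA-20 was thus the library in which the summed B55 level exceeded that of the substrates.

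**Figure D3:**
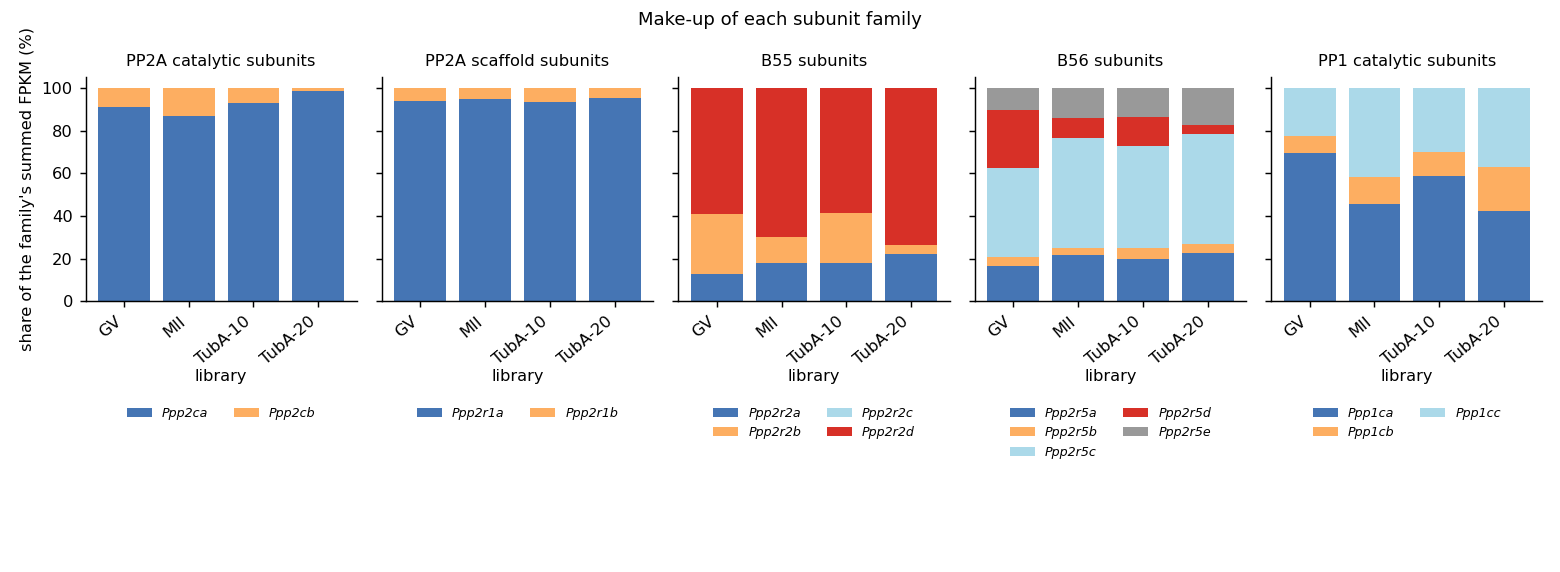
Share of the summed FPKM (percent) that each gene took within the catalytic, scaffold, B55, B56 and PP1 catalytic families in the 4 libraries, as stacked bars from 0 to 100. *Ppp2r2b* runs from 28.3% of the B55 family in GV to 4.28% in TubA-20, and *Ppp1ca* from 69.7% of the PP1 catalytic genes to 42.4%.

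*Ppp2r5c* (ENSMUSG00000017843, chr12:110447120-110583062, plus strand, 14 exons) encodes B56 gamma. Its level was 32.4 FPKM in GV, 38.5 in TubA-10, 47.7 in TubA-20 and 49.1 in MII. MII and TubA-20 lay close together and TubA-10 lay between them and GV. Relative to GV, the log2 change was 0.58 for MII, 0.54 in TubA-20 and 0.24 in TubA-10, and against MII it was -0.04 in TubA-20 and -0.34 in TubA-10. *Ppp2r5c* held 41.6% of the B56 FPKM in GV, 47.7% in TubA-10, 51.3% in TubA-20 and 51.6% in MII. In the same family *Ppp2r5d*, which encodes B56 delta, took 27.1% in GV, 13.9% in TubA-10, 9.30% in MII and 4.59% in TubA-20. The leading B56 gene was therefore the same in all 4 libraries, while *Ppp2r5d* had its highest share in GV.

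*Ppp1ca* (ENSMUSG00000040385, chr19:4192065-4195420, plus strand, 7 exons) encodes the alpha catalytic subunit of PP1. Its level was 68.1 FPKM in GV, 65.2 in TubA-10, 47.2 in MII and 41.5 in TubA-20. TubA-10 lay beside GV and TubA-20 beside MII, as for *Ensa*. Relative to GV, the log2 change was -0.52 for MII and -0.70 in TubA-20, and -0.06 in TubA-10, the sign of which turned with equal FPKM sums or *Gapdh*. Against MII it was -0.18 in TubA-20 and 0.46 in TubA-10. Its exons overlap *Rad9a* on the opposite strand, and the counting was stated to use strand. The *Ppp1ca* share of the PP1 catalytic genes was 69.7% in GV, 58.5% in TubA-10, 45.4% in MII and 42.4% in TubA-20. *Ppp1cb*, which encodes the beta subunit, took 7.70% of them in GV and 20.6% in TubA-20.

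Counted over the list, 0 genes were more than 2-fold higher and 1 was more than 2-fold lower in MII than in GV, where 3.05% of all genes were higher and 8.34% lower, or 8.26% and 20.8% of those with at least 5 FPKM in either library. That gene was *Arpp19*. In TubA-10 against GV 0 were higher and 2 lower (*Arpp19* and *Ppp2ca*), beside 0.742% and 5.6% of all genes and 1.77% and 14.2% of those with at least 5 FPKM. In TubA-20 against GV 1 was higher (*Ppp2r1a*) and 4 were lower (*Arpp19*, *Ppp2ca*, *Ppp2cb* and *Ensa*), beside 7.61% and 11.7% of all genes. Many genes of the table were at or near 0 and could not pass, and among genes with at least 5 FPKM in either library 20.2% were higher and 26.8% lower in TubA-20 than in GV. Over all genes, the balance of the 2-fold calls moved with the scaling of the libraries. The share that were higher was 26.7% in MII against GV as deposited and 13.7% to 51.2% over 4 other scalings, 11.7% and 4.23% to 46.4% for TubA-10, and 39.4% and 22.9% to 44.2% for TubA-20.

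Between the cultured libraries, 0 of the 10 genes passed 2-fold in either direction in TubA-10 against MII, where 0.515% of all genes were higher and 0.128% lower, or 1.29% and 0.206% of those with at least 5 FPKM. In TubA-20 against MII 0 were higher and 1 was lower, beside 0.328% and 2.44% of all genes and 0.542% and 6.09% of those with at least 5 FPKM. *Arpp19* was the lower gene there and again in TubA-20 against TubA-10, where 0 were higher and 1 lower beside 0.66% and 5.52% of all genes and 1.45% and 14.1% of those with at least 5 FPKM. Against GV, the median log2 change of the list was -0.05 for MII, -0.06 with TubA-10 and -0.24 with TubA-20, all including *Ppp2cb*. Among its genes with at least 5 FPKM in either library, which leaves *Ppp2cb* out, it was 0.18, -0.06 and 0.23 in that order, beside 0.11, 0.15 and 0.23 over all genes past that filter. The sign for MII and TubA-20 thus turned with the filter. Against MII the filtered median was 0.01 for TubA-10 and -0.04 for TubA-20, beside 0.01 and 0.06.

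**Figure D4:**
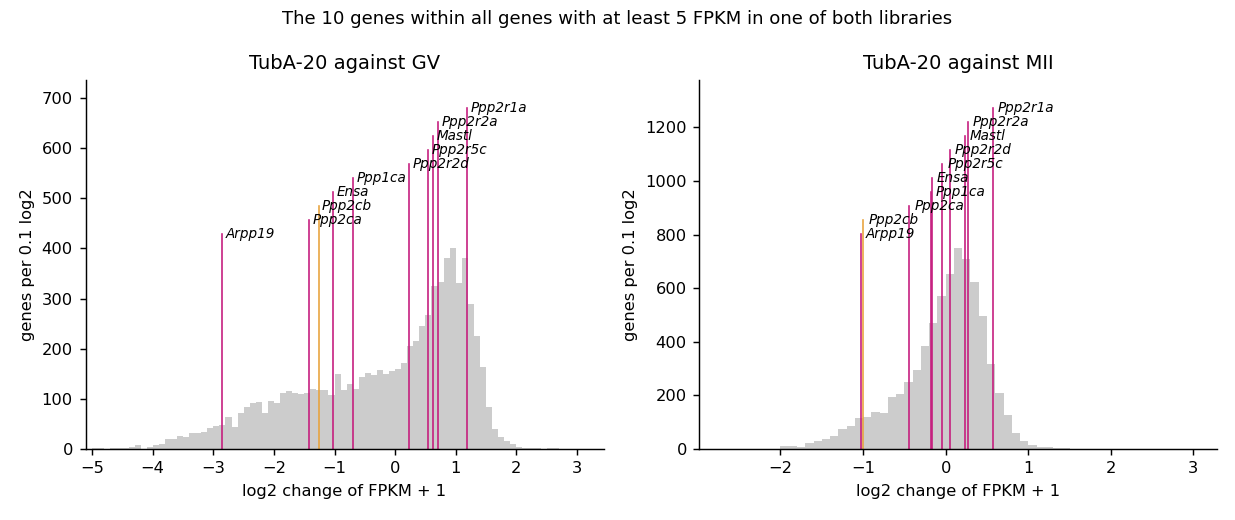
Log2 ratio of FPKM + 1 in TubA-20 against GV (left) and against MII (right), with vertical lines for the 10 genes over a grey histogram (genes per 0.1 log2) of all genes with at least 5 FPKM in either library. Line heights carry no value, and *Ppp2cb*, in orange, did not pass that filter. *Arpp19* lies near the lower end in TubA-20 against GV, where 4.27% of these genes are lower, and *Ppp2r1a* near the upper end in TubA-20 against MII, where 92.6% are lower.

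Of 13 other PP2A subunit genes, 1 was more than 2-fold higher and 4 were lower in MII than in GV. The same counts were 0 and 1 for TubA-10, and 0 and 4 for TubA-20. Among all genes, 3.05% were higher and 8.34% lower in MII, 0.742% and 5.6% with TubA-10, and 7.61% and 11.7% with TubA-20. Among those with at least 5 FPKM in either library, 8.26% were higher and 20.8% lower in MII, 1.77% and 14.2% with TubA-10, and 20.2% and 26.8% with TubA-20. The 13 were not filtered, and some of them, such as *Ppp2r2c*, *Ppp2r3a*, *Ppp2r3d* and *Ppp2r5b*, lay below 5 FPKM in every library. Besides *Ppp2r2b*, at -2.58 on the log2 scale between TubA-20 and GV, the lower genes in TubA-20 were *Ppp2r5d* at -2.07, *Ppp2r3c*, a B'' subunit, at -1.93, and *Strn4*, a striatin, at -1.72. The same genes were lower in MII, at -1.26, -1.16, -1.23 and -1.50 in that order. As deposited, *Ppp2r2b* was also the gene of the 13 past 2-fold between TubA-20 and MII, at -1.32. *Ppp2r5d* stood at -0.90 there and between -1.05 and -0.96 with other scalings or pseudocounts, so it passed in some of them.

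Of 9 genes for PP2A assembly, methylation and inhibition, 1 was higher and 3 were lower when TubA-20 was set against GV, where 20.2% of all genes with at least 5 FPKM were higher and 26.8% lower. In MII against GV 1 was higher and 1 lower, beside 8.26% and 20.8% of genes with at least 5 FPKM. *Fam122a*, which encodes an inhibitor of PP2A with B55, was measured at 65.0 FPKM in GV, 122 in TubA-10, 152 in MII and 245 in TubA-20. Its order of libraries was the reverse of that of *Arpp19* and *Ensa*, which also encode inhibitors of this form, with log2 changes from GV of 1.21 in MII, 1.90 in TubA-20 and 0.89 in TubA-10. *Lcmt1*, the methyltransferase of the PP2A catalytic subunit, was at -1.53 in TubA-20 against GV and at -1.02 against MII. *Igbp1*, which binds the free catalytic subunit, was at -1.28 and *Ptpa*, an activator of PP2A, at -1.18 in TubA-20 against GV. In MII against GV *Igbp1* was at -1.30, *Ptpa* at -0.84 and *Lcmt1* at -0.51. Against MII, *Igbp1* in TubA-20 was at 0.03.

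Of 6 other PP1 genes, 1 was higher and 1 lower in TubA-20 than in GV. Beside them stand 7.61% and 11.7% of all genes, or 20.2% and 26.8% of those with at least 5 FPKM in either library, a filter that *Ppp1r2* did not pass. *Ppp1r11*, which encodes a PP1 inhibitor, had 228 FPKM in the GV library, 40.5 in MII, 24.9 in TubA-20 and 36.5 in TubA-10, so its GV level stood apart from all cultured libraries. *Ppp1cb* was at 1.31 on the log2 scale in TubA-20 against GV, and at 0.76 in MII against GV. Neither of the 2 PP2A-like catalytic genes, *Ppp4c* and *Ppp6c*, passed 2-fold in any comparison with GV or MII. Of the 2 shugoshins, *Sgo2a* was 2-fold higher in TubA-20 than in GV at 1.06, or 0.85 with the median change over genes set to 0. Its protein recruits PP2A with B56 to meiotic centromeres. In MII against GV the *Sgo2a* change was 0.97, just short of 2-fold. Against MII it was 0.10 in TubA-20, the sign of which turned under other scalings.

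The kinase that these phosphatases oppose was measured in the same libraries. *Cdk1* had 179 FPKM in the GV library, 121 in TubA-10, 44.2 in MII and 15.5 in TubA-20. Its libraries stood in the order of *Arpp19*, *Ensa* and *Ppp1ca*. *Ccnb1*, the cyclin B1 partner of CDK1, was measured at 394 FPKM in GV, 626 in TubA-10, 749 in MII and 927 in TubA-20, which is the order of *Ppp2r1a* and the reverse of that of *Cdk1*.

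Maternal mRNAs of the oocyte are stored with short poly(A) tails, and some are given longer tails in maturation through cytoplasmic polyadenylation elements in the 3′ UTR. The libraries were made with an mRNA kit that selects for poly(A), and tail length was not measured. The 3′ UTR of 1 annotated transcript per gene was searched on its sense strand for TTTTAT and TTTTAAT, and overlapping matches were counted. Of 20403 genes with a 3′ UTR, 54.6% held either anywhere and 21.8% in the last 150 bases. *Mastl* held 7 in all, *Ensa* 1, *Arpp19* 3, *Ppp2ca* 7, *Ppp2r1a* 2 and *Ppp2r2a* 8, whereas the 3′ UTRs of *Ppp2cb*, *Ppp2r2d*, *Ppp2r5c* and *Ppp1ca* held 0. In the last 150 bases *Arpp19* held 1 and *Ppp2r1a* 2, and the other genes of the list held 0. These last matches are shown because the genes that hold them had the lowest and the highest change of the list in TubA-20 against GV with 1 FPKM added. With 0.1 FPKM added *Ppp2cb* was lower than *Arpp19*, at -3.21 against -2.87.
*Arpp19*: atggatctacctaatTTTTATtgattttaa
*Ppp2r1a*: gtgccatttttaTTTTATtcctttccctac
Both are from GENCODE M21 on GRCm38, plus strand, with the match nearest the transcript end in capitals, at chr9:75060284-75060313 and chr17:20965846-20965875. The matches lie 15 and 59 bases before the annotated ends, and the second match of *Ppp2r1a*, at 64 bases, overlaps the one in capitals. A match is a run of letters and not a shown element.

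**Figure D5:**
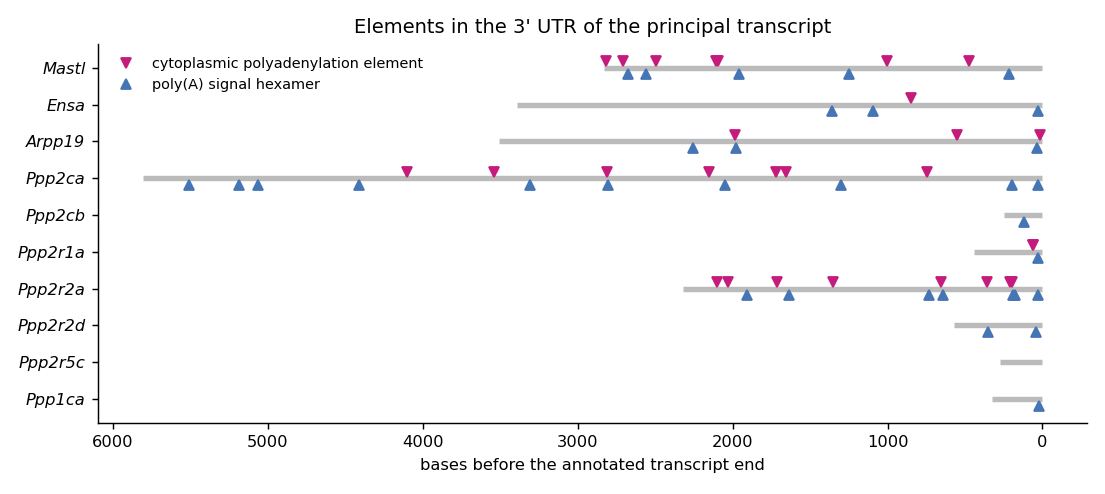
Position of each TTTTAT or TTTTAAT match in the 3′ UTR of the 10 genes, in bases before the annotated transcript end. Grey bars are the 3′ UTRs, triangles above them the matches, and triangles below them the poly(A) signal letters AATAAA or ATTAAA. *Arpp19* and *Ppp2r1a* are the genes of the list with a match in the last 150 bases.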

How the data were processed

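The authors deposited 1 table of FPKM values for 4 libraries of pooled oocytes, made per the submitters' processing notes with STAR 2.5.0, Cufflinks and Cuffdiff 2.2.1 on mm10 with a strand-specific library type. FPKM had therefore been divided by transcript length and by mapped fragments before deposit, read counts were not used here, and the columns hold 1 library each. Of 21959 entries 21794 had a symbol, and entries sharing a symbol were summed, giving 21957 genes. The log2 ratio of FPKM + 1 was computed with Python 3.11.15, numpy 2.4.6 and pandas 2.3.3, with no filter on low values, and a gene was counted past 2-fold. With 1 library per group no test was run. Scripts were tested on simulated data. Depth was estimated from the steps of low FPKM values, and fragments from depth and the length of 1 GENCODE transcript. Near copies were transcripts with at least 90% identity over at least 100 bases.

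The 10 genes and the lists were chosen with earlier results of these data known. All 10 were named, and of each other list up to 4 genes past 2-fold from GV, or from MII in a TubA library, by size. The nearest patterns of *Mastl*, *Arpp19* and *Ppp2ca* were the 3 genes with the smallest Euclidean distance in the changes against GV, among genes with at least 5 FPKM in GV. The 150-base window, the fragment estimates, the near-copy search and the range over scalings of the other lists were added after the data were seen. Alternatives were 2 pseudocounts, 4 scalings, 2 folds, 2 filters on low values and the highest entry of a shared symbol.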

Additional observations from a re-analysis of the deposited data

Results flagged for a closer look

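For 4 of the 10 genes the TubA libraries lay on opposite sides of MII under the deposited values and under 4 other scalings. The share of all genes that did so was not computed, so this count does not set the list apart. With 1 library per dose the difference was not tested, and both changes share the MII library. The TubA-20 change against MII minus the TubA-10 change was -1.30 on the log2 scale for *Arpp19*. For *Ensa* it was -0.82 and for *Ppp1ca* -0.64, so these 3 genes were higher than MII in TubA-10 and lower in TubA-20. *Ppp2r1a* had the opposite sign, with a difference of 0.84.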

How the results depend on the processing

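No paired analysis was possible because each condition has 1 library. Of 420 values of the 10 genes under alternatives, 410 moved by less than 0.39 on the log2 scale, 14 changed sign and 18 changed their side of 2-fold. Each scaling shifted all genes of a comparison by nearly the same amount, always below 0.39, so no value could move further through it. The count of 410 was thus largely fixed in advance and does not measure stability. The 10 values that moved more were those of *Ppp2cb* with a smaller pseudocount. A pseudocount cannot change a sign, and the highest entry of a shared symbol changed no sign or call, so these say nothing on signs. The sign changes came from the scalings, 5 with equal FPKM sums, 4 with equal *Gapdh*, 3 with equal upper quartiles and 2 with the median change at 0. Changing the scaling by setting the median log2 change of 9193 genes to 0 shifted the changes against GV by -0.14 in MII, -0.23 in TubA-20 and -0.16 in TubA-10.

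The counts of the list that moved by over 1.5 times were these. In MII against GV the lower count was 2 with either smaller pseudocount and with the median change at 0, and at 1.5-fold 1 gene was higher and 3 lower. In TubA-10 against GV 1 was lower with equal sums, upper quartiles or *Gapdh*, and 0 at 3-fold. In TubA-20 against GV the higher count was 0 with the median change at 0, 3 at 1.5-fold and 0 at 3-fold, where 1 was lower. The median of the list there was 0.23 among its genes with at least 5 FPKM, against -0.24, because that filter leaves out *Ppp2cb*. In TubA-10 against MII 1 was higher at 1.5-fold and 1 lower with a pseudocount of 0.01 FPKM. In TubA-20 against MII 2 were lower with either smaller pseudocount, with equal sums, upper quartiles or *Gapdh*, and at 1.5-fold, and 0 at 3-fold. In TubA-20 against TubA-10 2 were lower with either smaller pseudocount, 1 was higher and 3 lower at 1.5-fold, and 0 were lower at 3-fold. The gene added by the smallest pseudocounts was *Ppp2cb*, except in MII against GV, where it was *Ppp2ca*. With the scalings, *Ppp2ca* came to pass 2-fold in MII against GV and ceased to pass in TubA-10 against GV. *Ppp2r1a* ceased to pass in TubA-20 against GV, and *Ppp2cb* came to pass in TubA-20 against MII. The moves at 1.5-fold and 3-fold follow from the changed threshold.

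The fragments behind each FPKM value are known here only as an estimate, and their number limits *Ppp2cb*, with about 1 fragment in TubA-20.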

Other observations

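Among 7149 genes with at least 5 FPKM in GV, the genes whose changes against GV were nearest to those of *Mastl* were *Exoc5*, *Efhc2* and *Fbxo15*, at Euclidean distances of 0.0402, 0.0424 and 0.0595 on the log2 scale over 3 changes. Within 0.2 of *Mastl* lay 174 genes, so its pattern was a common one. Nearest to *Arpp19* were *Clpb* at 0.0618, *Cpsf4* at 0.0917 and *Ndufb11* at 0.118, and 16 genes lay within 0.2. Nearest to *Ppp2ca* were *Cdc37* at 0.0275, *Adsl* at 0.0520 and *Mrpl13* at 0.0811, with 21 genes within 0.2.

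Among 7058 genes with a 3′ UTR and at least 5 FPKM in GV, 25% held TTTTAT or TTTTAAT in the last 150 bases. The median log2 change of these 1763 genes was 0.45 in MII, 0.69 in TubA-20 and 0.35 in TubA-10 against GV, and that of the 5295 others was -0.19, -0.25 and -0.02 in that order. Against MII the TubA-10 medians were -0.10 with a match and 0.10 without, and those of TubA-20 were 0.16 and -0.06.

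*Strn*, a striatin named here after its values were seen, was the PP2A subunit gene that was 2-fold higher in MII than in GV, at 112 FPKM against 46.0 FPKM. It had 91.5 FPKM in TubA-10 and 92.2 in TubA-20, just short of 2-fold from GV at log2 changes of 0.98 and 0.99. Under other scalings these reached up to 1.24 and 1.06. *Ppp1r11* was the lowest of the other PP1 genes in TubA-10 against GV as well, at -2.61.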
